A study of Mus musculus with 6 samples.

Results

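Complement is a set of plasma and cell-surface proteins that tags particles and dying cells for removal. C1q, assembled from the products of C1qa, C1qb and C1qc, recognises antibody complexes and cell debris and starts the classical pathway through the proteases C1r and C1s. All routes cleave C3, the central component, which lets cells be coated for uptake and releases the peptide C3a; later cleavage of C5 releases C5a, and C3ar1 and C5ar1 encode the receptors of these peptides on myeloid cells. Most plasma complement comes from the liver, whereas C1q and properdin (Cfp) are made largely by myeloid cells, and C3, C4b and Cfb can be induced locally by inflammatory signals.

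The genes described here are C1qa, C1qb, C1qc, C3, C4b, Cfb, Cfp, C3ar1 and C5ar1, 9 of the 17714 genes in the deposited table, taken by gene symbol. They were measured by RNA sequencing in 6 libraries of mouse heart cells labelled lymphatic endothelial, 3 after sham operation and 3 after myocardial infarction (MI). All were labelled wild type (WT) and day 3; the sources used here give no strain or age. The protocol text names heart tissue or primary heart endothelial cells and a culture medium with serum, gives no sorting step, and does not state whether each library is a different animal, so p-values measure the spread between these libraries only.

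The libraries held 3206732 to 3591473 estimated counts in sham and 21154342 to 21689333 in MI, 6.29 times as many on average, so depth followed the group. Among the marker lists, 14 of 15 macrophage and monocyte genes rose and 1 fell (summed TPM 5322 to 5609.85 against 25988 to 26963, here and below sham against MI), and 7 of 8 neutrophil genes tested of 10 listed rose (85.0 to 109.8 and 1688 to 2077, with Ngp at 0 counts in sham). All 9 pan-endothelial genes fell (5255 to 5285 and 962 to 1003), as did 6 of 7 lymphatic genes (333 to 370.03 and 217 to 237 for all 7, of which Pdpn, the gene that rose, made up 4.18 to 5.99 and 183 to 201), 6 of 8 fibroblast genes (1936 to 1992 and 739 to 767, with 2 higher) and all 6 cardiomyocyte genes (3640 to 3720.1 and 136 to 166). Of 6 hepatocyte genes 3 were in the table, and their summed TPM was 33.9 to 44.2 against 1.70 to 2.12. Ahsg, the only 1 tested, made up nearly all of the sham sum, with mean TPM of 38.2 against 0.543. Alb was at a mean of 0.74 against 0.03 TPM, and Apoa1 went the other way, at 0.14 against 1.31 TPM. The 3 B cell genes summed to 7.57 to 8.36 and 1.58 to 2.03, with 2 lower. Prox1, the transcription factor that defines lymphatic endothelium, had 7.12 ± 0.548 CPM in the sham and 1.26 ± 0.456 CPM in the MI libraries (mean ± SD, n = 3), low beside Pecam1 at 1604 ± 19.6 and 386 ± 5.90 CPM. In bulk RNA, fewer cells of a type and less RNA per cell cannot be told apart, and the part of these cell-type shifts in the complement results was not tested.

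All 9 complement genes were higher in MI, from 1.70-fold for C4b to 15.8-fold for Cfb. By the quasi-likelihood test of edgeR, each had an adjusted p (Benjamini-Hochberg, over 13370 genes) below 0.05, and for none of the 9 did the sham and MI libraries overlap. Over all genes tested, 36.4% were called higher and 36.9% lower (73.3% in either direction), and 38.0% were higher with no overlap (76.1% in either direction), so a call on its own is common here. The median log2 fold change (MI minus sham) of the 9 was 2.04, against -0.01 over all genes tested. With libraries scaled to total counts in place of TMM, 34.9% instead of 49.6% of the calls over all genes were rises and the median over all genes moved to -0.36; all 9 genes were still called higher. All 9 passed the filter on low counts, and the fewest counts behind any value were 29, for Cfb in the library sham 3.

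The promoters of members with a match to a myeloid or inflammatory factor's motif upstream of annotated transcripts are shown first. Whether any motif had a part in the rises was not tested. RefSeq promoter windows on GRCm38.p6, 250 bases before to 50 after an annotated start, matched 6 of the 9 genes (C1qb, C1qc, C3, Cfp, C3ar1 and C5ar1). C1qa, C4b and Cfb had no entry. Printed are the bases upstream of the start, 5′ to 3′ on the minus strand that carries these genes, with the matched motif in capitals; for C1qc the last 151 bases before the RefSeq start are left out because GENCODE M21 annotates them as transcribed.
C1qb, chr4:136886201-136886450: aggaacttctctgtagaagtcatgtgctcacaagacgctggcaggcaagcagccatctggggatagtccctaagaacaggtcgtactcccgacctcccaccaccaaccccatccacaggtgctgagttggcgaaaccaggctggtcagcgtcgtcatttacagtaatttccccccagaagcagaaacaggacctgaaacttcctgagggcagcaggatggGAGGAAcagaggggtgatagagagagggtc
C1qc, chr4:136893066-136893164: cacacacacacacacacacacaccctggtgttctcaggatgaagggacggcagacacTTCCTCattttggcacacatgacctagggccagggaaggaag
C3, chr17:57228137-57228386: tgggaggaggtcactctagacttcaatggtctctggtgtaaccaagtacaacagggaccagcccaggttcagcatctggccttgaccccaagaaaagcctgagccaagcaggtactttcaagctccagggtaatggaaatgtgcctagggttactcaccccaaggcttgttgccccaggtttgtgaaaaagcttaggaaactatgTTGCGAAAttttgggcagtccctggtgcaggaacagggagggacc

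The PU.1 core GAGGAA (PU.1 is a transcription factor of the myeloid lineage) matched on either strand in 3 of the 6 windows, those of C1qb, C1qc and Cfp, against 28.3% of 32851 promoter windows of 300 bases. In C1qb it lies 30 to 25 bases before the start. In C1qc it lies on the opposite strand, 193 to 188 bases before the RefSeq start and upstream of the bases left out. That start lies inside the gene coordinates given below for C1qc, which run to 136892936. The 2 matches of Cfp lie after its start and are not printed. The C/EBP motif TTGCNNAA, of factors active in liver and myeloid cells, was found in C3 alone, 45 to 38 bases before the start, against 10.8% of all windows. The NF-kB motif GGANTTTCC was in none of the 6 windows and in 1.25% of all. The shortened interferon-stimulated element GAAANNGAA was in C5ar1 (8.56% of all windows), 66 to 58 bases before the RefSeq start and within bases annotated as transcribed. TATAAA was in C3 and C3ar1 (13.6% of all), after the start in C3 and 235 to 230 bases before it in C3ar1. These are letter matches and not measured binding sites; some motifs share letters, and a motif absent from a window says nothing of the factor.

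The C1q chains were the most abundant of the 9 genes in both groups and rose 3.03-fold to 4.11-fold. TPM, a share of all transcripts of a library, corrects for gene length and is used for levels between genes. C1qa, which encodes the A chain, stood at 1004, 965 and 899 TPM in sham 1 to 3 and at 2295, 2751.5 and 2695 TPM in MI 1 to 3, with every MI library above every sham library. Its log2 fold change was 1.60 ± 0.11 (SE, adjusted p = 6.13e-08 in edgeR's quasi-likelihood test).

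C1qb, the B chain gene, went from 900.2, 974 and 918 TPM to 3052, 3682 and 3481 TPM, the largest rise of the chains, with a log2 fold change of 2.04 ± 0.11 (edgeR adjusted p = 6.59e-09). C1qc, the C chain gene, was the steadiest in sham, at 806, 801 and 789 TPM, and reached 2059, 2456 and 2355 TPM in MI, a log2 fold change of 1.69 ± 0.10 (edgeR adjusted p = 2.51e-08). For all 3 chains the lowest MI library was MI 1. Together the chains made up 0.269 ± 0.00708% of the summed TPM in sham and 0.828 ± 0.0774% in MI (SD, n = 3). Ranked by TPM among all genes of a library, C1qa moved from place 139 to 150 in the sham libraries to place 30 to 37 in MI, and C1qb from 140 to 156 to 18 to 21.

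**Figure D1:**
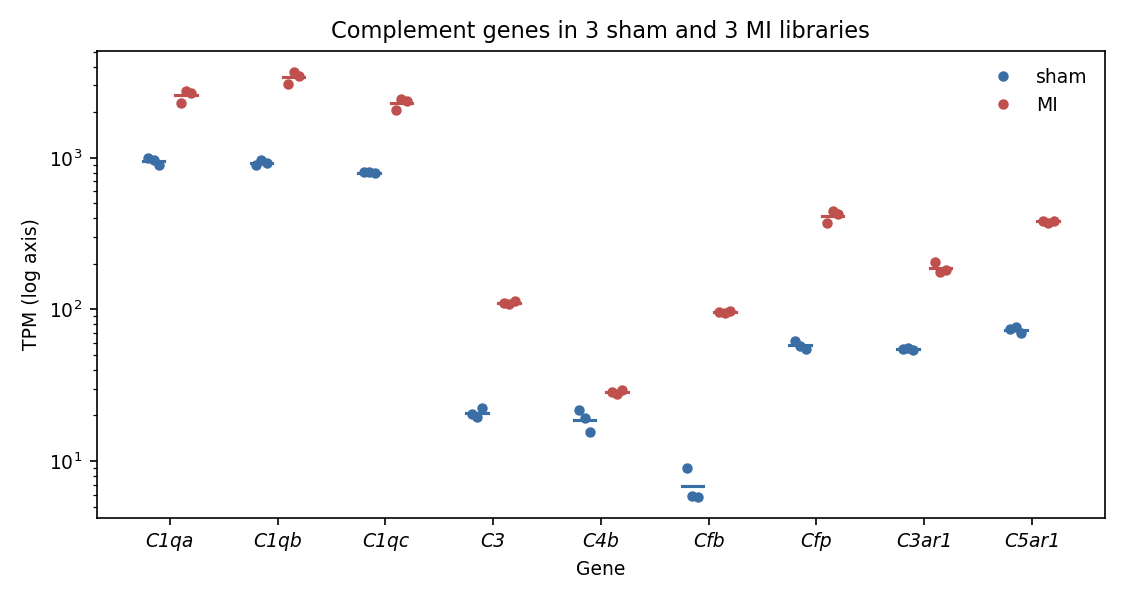
TPM (log axis) of the 9 complement genes in each of 3 sham and 3 MI libraries, with short lines at the group means. Every MI point lies above every sham point of the same gene; C1qb is at 3052 to 3682 TPM in MI, and Cfb starts lowest, at 5.83 to 9.01 TPM in sham.

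The level of C1qb relative to the other chains differed between the groups by more than the spread between libraries. C1q protein holds its A, B and C chains in equal numbers, and in sham the C1qb to C1qa ratio of TPM was 0.896, 1.01 and 1.02, near parity. In MI it was 1.33, 1.34 and 1.29, with no overlap (0.975 ± 0.0685 against 1.32 ± 0.0246, SD, n = 3; exact two-sided permutation p = 0.1). The C1qb to C1qc ratio was 1.17 ± 0.0487 in sham and 1.49 ± 0.0111 in MI, again with no overlap (exact permutation p = 0.1, n = 3 per group). The C1qc to C1qa ratio was 0.837 ± 0.0377 and 0.888 ± 0.0124 with overlapping groups (exact permutation p = 0.2, n = 3 per group). The 3 tests were of 1 family with no adjustment, and 0.1 is the smallest p that 3 against 3 libraries can give. The ratios rest on the authors' assignment of reads to genes; chain transcripts are not protein.

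**Figure D2:**
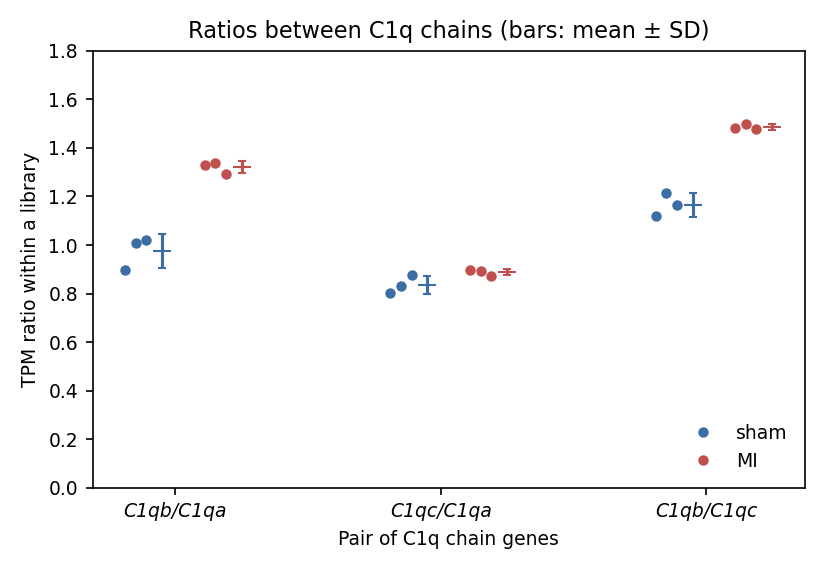
Ratio of TPM between pairs of C1q chain genes within each sham (blue) and MI (red) library, with mean ± SD beside the points. The ratios with C1qb as numerator lie higher in MI, at 1.29 to 1.34 against C1qa, whereas C1qc against C1qa overlaps between the groups.

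The chain genes lie side by side on chromosome 4 of GRCm38.p6, all protein coding and on the minus strand. C1qb (Entrez 12260) runs from 136880126 to 136886200, C1qc (12262) from 136889801 to 136892936 and C1qa (12259) from 136895916 to 136898844, within 18719 bases. The nearest genes of the table outside the cluster were chosen by position. Epha8, an ephrin receptor gene 30574 bases beyond C1qa, had 0 counts over sham and 5 over the deeper MI libraries and was not tested. Ephb2, of the same family and 43799 bases beyond C1qb, had 3 and 79 counts and was called higher (log2 fold change 2.37 ± 0.54, edgeR adjusted p = 0.0019) at 1.39 ± 0.144 CPM in MI.

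Both central components rose, 5.73-fold and 1.70-fold for C3 and C4b; the difference between these folds was not tested. C3 was at 20.5, 19.6 and 22.55 TPM in sham and at 110.5, 108 and 114 TPM in MI. All MI libraries lay above all sham libraries (log2 fold change 2.52 ± 0.09, edgeR adjusted p = 1.68e-10), and the spread within each group was small. C4b, the component cleaved by C1s ahead of C3, was at 21.7, 19.1 and 15.5 TPM in sham and 28.6, 27.5 and 29.4 TPM in MI. Its rise was the smallest of the 9, a log2 fold change of 0.76 ± 0.12 (edgeR adjusted p = 0.000104), with sham 1 the sham library nearest to the MI group. With scaling to total counts it was 0.41, as the median over all genes moved down too. C4b has a near-identical paralog, C4a, which has no entry in the deposited table, so reads of both could be counted under C4b and its value is uncertain. In sham C3 and C4b had overlapping TPM; in MI C3 stood at 111 ± 2.75 and C4b at 28.5 ± 0.947 TPM (SD, n = 3).

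The alternative pathway genes had the largest fitted rises of the 9. Cfb encodes factor B, the protease subunit of the convertase that amplifies C3 cleavage. It was at 9.01, 5.86 and 5.83 TPM in sham and 96.8, 95.2 and 97.6 TPM in MI. The MI libraries lay close together, while sham 1 was above the other sham libraries; the log2 fold change was 3.98 ± 0.15 (edgeR adjusted p = 4.23e-10), and 4.25 without sham 1. Only 2.32% of tested genes had a larger log2 fold change than Cfb. Cfp, the gene of properdin, which stabilises that convertase, was at 62.2, 57.5 and 54.6 TPM in sham and 373, 443 and 428 TPM in MI. Its fold was 8.02 (log2 fold change 3.004 ± 0.12, edgeR adjusted p = 7e-10), and MI 1 was again the lowest MI library. Cfd, factor D, which activates factor B, had 3 counts over the sham and 11 over the MI libraries and was not tested.

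C3, C4b and Cfb lie on chromosome 17 and Cfp on chromosome X. Cfb (Entrez 14962, 34856374 to 34862514) and C4b (12268, 34728139 to 34743902) are in the major histocompatibility region, C3 (12266) runs from 57203967 to 57228136, and Cfp (18636) from 20925454 to 20931555. C2, which encodes the classical counterpart of factor B, lies 87 bases from Cfb. Its level was 3.88 ± 0.310 CPM in the sham group, close to the 3.81 ± 0.198 CPM of the MI group, and the test did not call it (log2 fold change -0.03 ± 0.22, edgeR adjusted p = 0.904), where Cfb went from 9.70 ± 2.75 to 154 ± 8.80 CPM. The gene next to C3 on the lower side was Tnfsf14, the gene of the cytokine LIGHT, with 2.27 ± 0.431 CPM in sham and 153 ± 16.2 CPM in MI (edgeR adjusted p = 5.48e-11), and on the other side Trip10 fell 1.78-fold (edgeR adjusted p = 3.66e-05). These neighbours were named by position.

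Both anaphylatoxin receptor genes rose. C5ar1, the C5a receptor that draws in and activates neutrophils and monocytes, was at 74.4, 77.1 and 69.65 TPM in sham and 384, 373 and 384 TPM in MI. The groups were far apart relative to their spread, with a 5.78-fold rise (log2 fold change 2.53 ± 0.08, edgeR adjusted p = 1.47e-10). C3ar1, the C3a receptor, was at 54.65, 55.8 and 54.15 TPM in sham and 206, 177 and 183 TPM in MI, a 3.83-fold rise (log2 fold change 1.94 ± 0.08, edgeR adjusted p = 4.86e-10). It was the gene of the 9 for which MI 1 was the highest MI library. C5ar2, which encodes the other C5a receptor and lies 2588 bases from C5ar1 on chromosome 7, rose 3.00-fold from 4.90 ± 1.51 to 14.6 ± 0.720 CPM (edgeR adjusted p = 1.6e-05), at a far lower level.

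In order of TPM, the sham libraries placed C1qa and C1qb first with overlapping values, then C1qc, C5ar1, Cfp and C3ar1, the last 2 overlapping, C3 and C4b, also overlapping, and Cfb. In MI the order was C1qb, then C1qa and C1qc with overlapping values, Cfp and C5ar1 with overlapping values, C3ar1, C3, Cfb and C4b. Cfb was below C4b in every sham library and above it in every MI library. C1qb and C1qa overlapped in sham and did not in MI, and Cfp was below C5ar1 in sham and overlapped it in MI.

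Within the MI group the genes varied in 2 ways. In MI 1 the 3 C1q chains and Cfp were 0.24 to 0.26 log2 units below their MI mean, and in MI 2 they were 0.18 to 0.20 above it. C3ar1 stayed within 0.04 log2 units of its mean in all 3 MI libraries and C3 within 0.05. C4b, Cfb and C5ar1 lay between, with MI 1 lowest at -0.08 to -0.09. In these libraries Cd68, a lysosomal protein of macrophages, was also lowest in MI 1 (1260.3 CPM, against 1605 in MI 2), whereas Ptprc, the pan-leukocyte gene, was highest there (809 CPM, against 594 in MI 2). The order is thus not particular to complement genes. Tyrobp of the macrophage list was at 517 CPM in MI 1 and 777 in MI 2. The neutrophil gene S100a8 was at 134 and 200 CPM and the endothelial gene Egfl7 at 96.2 and 134. Mrc1 went the other way, at 821 and 567 CPM. Among the sham libraries Cfb and C4b were the most spread, with sham 1 at 0.42 and 0.22 log2 units above the mean.

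**Figure D3:**
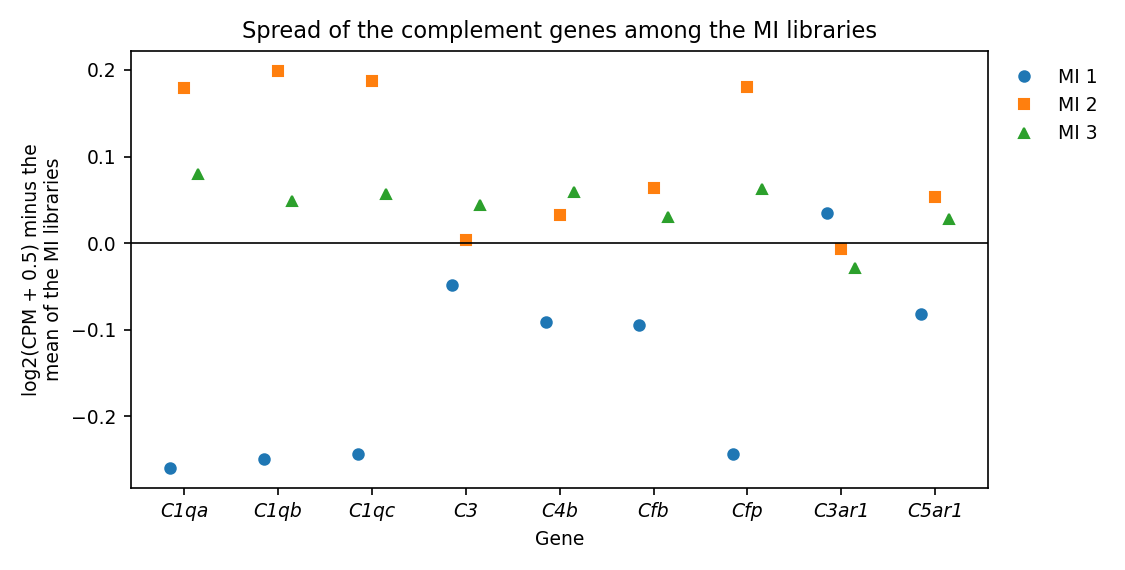
Deviation of each gene from its mean over the 3 MI libraries, in log2(CPM + 0.5) units, by library. The 3 C1q chains and Cfp share a pattern, lowest in MI 1 and highest in MI 2, and C3ar1 and C3 stay within 0.05 of the mean. Genes outside complement, such as Tyrobp, S100a8 and Egfl7, have the same order in these libraries, and Mrc1 and Ptprc the reverse.

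Set against macrophage genes measured in the same libraries, the 9 complement genes lay on both sides of zero. The level of each gene relative to the mean log2(CPM + 0.5) of 15 macrophage and monocyte genes was compared between groups by exact permutation of the libraries, two-sided and with 0.1 as the smallest possible p (9 tests, no adjustment, n = 3 per group). C1qa went from 2.47 ± 0.03 to 1.47 ± 0.21 on this log2 scale, 0.99 lower in MI, C1qc was 0.91 lower, C1qb 0.55 lower, C3ar1 0.65 lower and C4b 1.81 lower (exact p = 0.1 each). Cfb was 1.37 higher, from -3.25 ± 0.34 to -1.88 ± 0.07, and Cfp 0.40 higher (exact p = 0.1 each). C3 was 0.08 lower (exact p = 0.1) and C5ar1 0.06 lower with overlapping groups (exact p = 0.3).

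The choice of reference decided several of these directions. Against Cd68, which rose 14.5-fold, 8 of the 9 genes were lower in MI and Cfb, 0.11 higher with overlapping groups, was not distinguishable; Cfp turned to 0.86 lower. Against Csf1r, the macrophage growth factor receptor, which rose 3.07-fold, C1qa was level (-0.03, exact permutation p = 0.9, n = 3 per group) and C1qc differed by 0.06 with overlapping groups (exact permutation p = 0.6). C1qb, C3, C3ar1 and C5ar1 turned to 0.41, 0.89, 0.32 and 0.91 higher against Csf1r (exact permutation p = 0.1 each). Under all 4 references tried (the list, Cd68, Ptprc and Csf1r) C4b was lower in MI. A change of reference moves the 9 genes by the same amount, so their order is that of the plain fold changes.

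**Figure D4:**
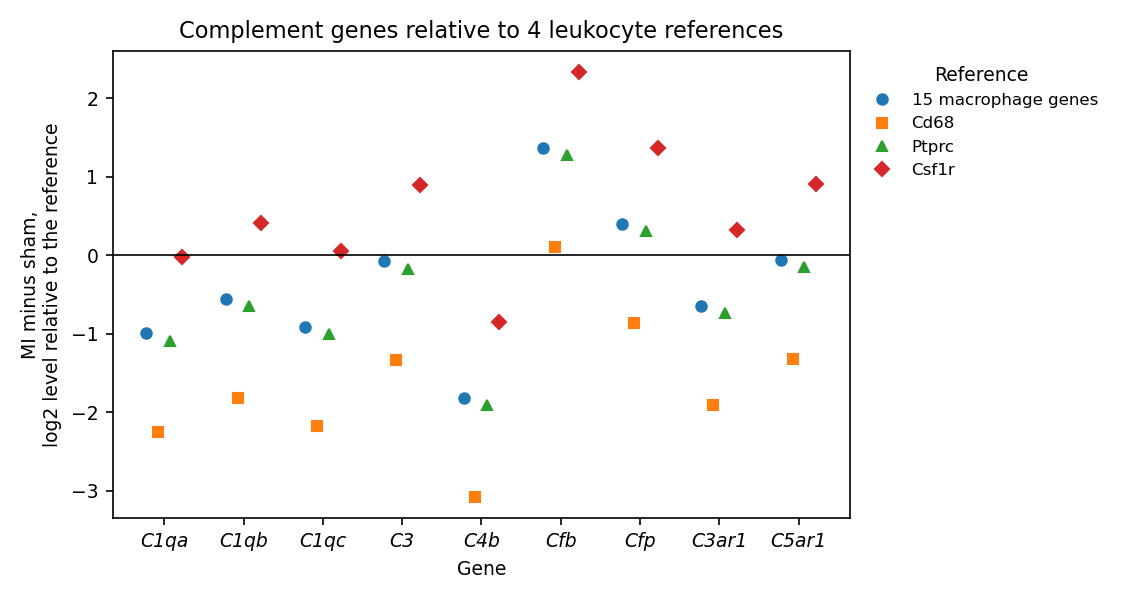
Difference between the MI and sham means (log2) of each complement gene relative to 4 references measured in the same libraries: the mean of 15 macrophage genes, Cd68, Ptprc or Csf1r. The zero line falls in a different place for each reference, whereas the order of the genes is the same by construction.

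Of 7 resident-type macrophage genes listed, 6 fell and 1 rose (summed TPM 1230 to 1295 and 762 to 905). The list shares Mrc1 and Cd163 with the macrophage and monocyte list: Mrc1 is the gene that rose here, and Cd163 the gene that fell there. Lyve1, also among the lymphatic genes, fell 17.1-fold, Timd4 15.4-fold and Cd163 7.47-fold. The other falls were small, 1.46-fold for Folr2, 1.31-fold for Gas6 and 1.16-fold for F13a1 (edgeR adjusted p = 0.0371, near the threshold). F13a1, the most abundant by CPM over all 6 libraries, went from 568 ± 22.2 to 490.4 ± 43.8 CPM, whereas Lyz2, the lysozyme gene, went from 1914 ± 52.9 to 9011 ± 585 CPM (SD, n = 3). The members' rises stand beside both movements, and which cells carried the transcripts was not tested.

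The rest of the complement pathway went both ways. Of 50 other complement genes listed, 46 were in the table and 26 passed the filter on low counts; 8 of these rose, 14 fell and 4 did not pass, with a median log2 fold change of -0.78. The fallen genes were mainly regulators and genes listed under the classical and lectin pathways. The risen ones were mainly genes listed as receptors, a broad list that includes Calr and C1qbp. Over all genes tested, 36.4% were called higher and 36.9% lower, with a median log2 fold change of -0.01, so calls in both directions are common here. The counts for this list, and those by role below, are descriptions and were not tested as a list.

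The proteases that act with C1q did not rise with it. C1ra fell 1.57-fold, from 32.6 ± 1.75 to 20.9 ± 1.04 CPM (edgeR adjusted p = 0.00023), and C1s1 3.22-fold, from 88.7 ± 5.32 to 27.6 ± 1.16 CPM (edgeR adjusted p = 1.4e-08). Of the 8 classical and lectin pathway genes tested, 5 fell, 1 rose and 2, C2 and Masp1, did not pass. Fcna, the gene of ficolin A, a soluble recognition protein, fell 4.90-fold from 40.8 ± 2.27 to 8.33 ± 0.796 CPM. The gene that rose was C1rl, a relative of C1r, from 1.48 ± 0.389 to 7.21 ± 0.227 CPM. Among fibroblast markers in the same libraries 6 of 8 genes fell (Gsn, the most abundant, 2.67-fold), whereas the collagen genes Col1a1 and Col1a2 rose 6.30-fold and 3.15-fold; their part in the falls of C1ra and C1s1 was not tested.

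Genes that restrain complement fell. Of 8 regulators tested, 7 fell and none rose (median log2 fold change -1.83). Cd59a, which blocks the membrane attack complex, fell 6.12-fold from 52.9 ± 0.369 to 8.63 ± 1.16 CPM (edgeR adjusted p = 3.24e-09).

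Cd55, which speeds the decay of convertases, fell 4.88-fold, Serping1, the inhibitor of C1r and C1s, 2.61-fold, and Cr1l, the rodent membrane inhibitor Crry, 1.84-fold from 213 ± 8.32 to 116 ± 3.65 CPM. The pan-endothelial list, cells that carry several of these inhibitors, had a median log2 fold change of -2.10 in the same libraries, the fibroblast list one of -1.77. The part of these shifts in the fall of the regulators was not tested.

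The terminal components were scarce. Of 7 listed, 2 were tested, and C7 fell 9.95-fold, from 14.2 ± 2.33 to 1.42 ± 0.423 CPM (edgeR adjusted p = 1.22e-07). Hc, the mouse C5 gene, had 0 counts over the sham libraries, which allows up to 0.26 CPM over the group (3 counts, counting error only), and 17 counts over the MI libraries (0.297 ± 0.105 CPM). It did not pass the filter on low counts and was not tested. In the same MI libraries the receptor gene C5ar1 was at 549 ± 27.1 CPM.

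Among the genes listed as receptors, 7 of 8 tested rose and 1 fell. The list is broad: it also holds Calr, its most abundant gene, and C1qbp, which rose 2.78-fold and 1.75-fold. Itgax, Itgb2 and Itgam, subunits of the complement receptors that bind cleaved C3, rose 29.9-fold, 13.2-fold and 12.0-fold. Itgb2 went from 53.5 ± 3.71 to 707 ± 43.9 CPM; Itgam also stands in the macrophage list. Vsig4, a receptor for cleaved C3 on resident macrophages, went the other way and fell 13.5-fold, from 41.0 ± 0.735 to 3.02 ± 0.687 CPM (edgeR adjusted p = 1.1e-09). Cd93, a receptor of endothelial and myeloid cells, was at 652 ± 12.3 and 770 ± 98.2 CPM (log2 fold change 0.24 ± 0.09, edgeR adjusted p = 0.0336). Its call was lost under 7 alternatives and its direction turned with scaling to total counts (-0.11); it was named after its value was seen.

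**Figure D5:**
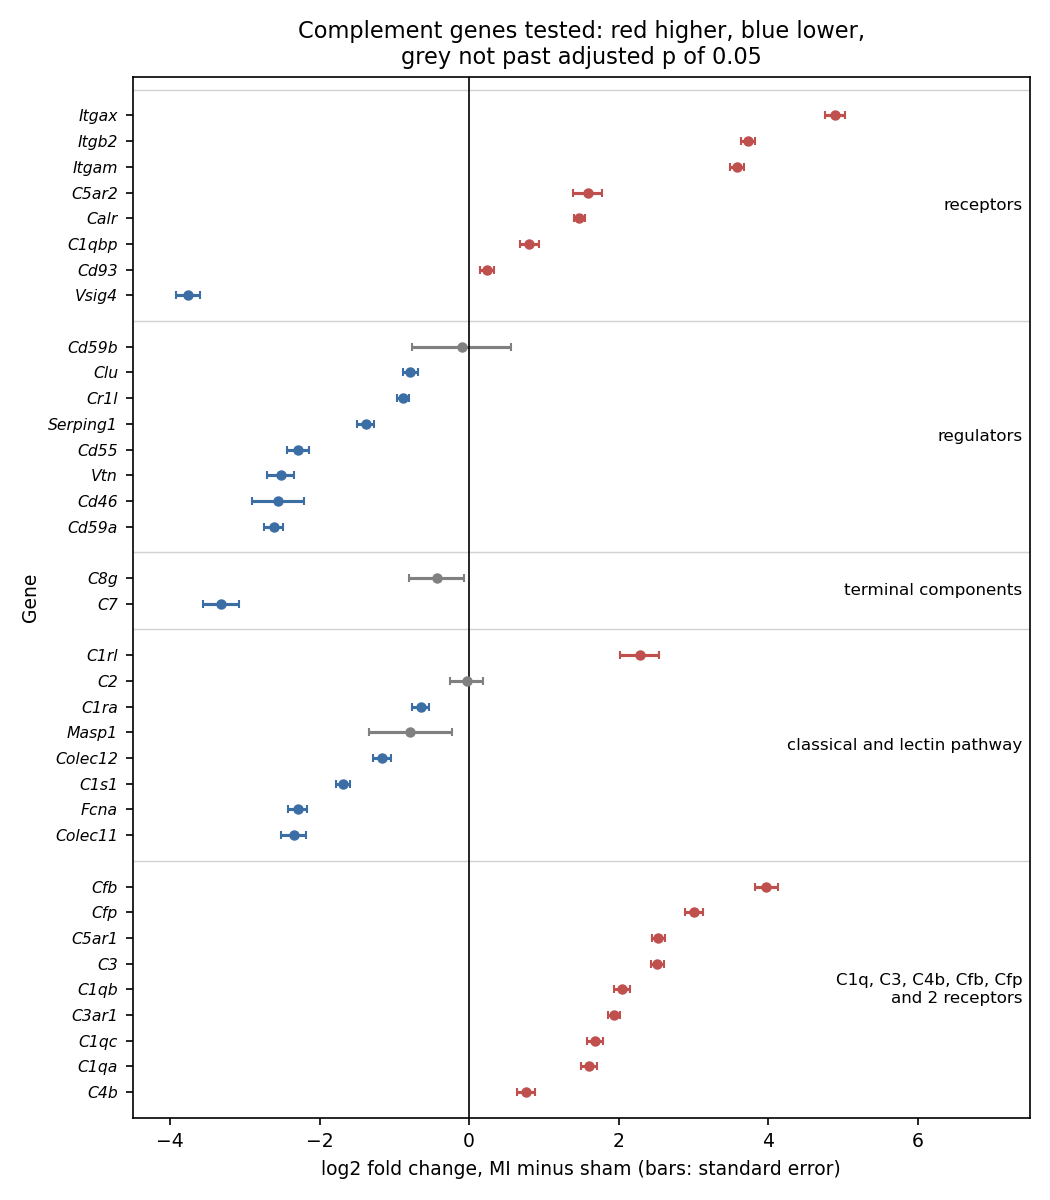
Log2 fold change (MI minus sham, bars are the standard error) of the 9 genes and of the 26 other complement genes tested, grouped by role. The 9 genes run from 0.76 for C4b to 3.98 for Cfb, and 7 of 8 regulators lie left of zero and pass. Of 8 genes listed as receptors, 7 lie right of zero and pass, Calr and C1qbp included. Of these, Cd93 turns to the left with libraries scaled to total counts.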

How the data were processed

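The 6 libraries were grouped as 3 sham and 3 MI by their titles. The authors deposited estimated counts per gene, TPM, FPKM and scaled counts (signal values) in 1 table; per the labels' design text reads were mapped to mouse GRCm38 (GRCm38.p6 per the submitters' processing notes). Aligner, counting program, strand setting and filters are not given in the sources used here, so overlapping genes are uncertain. The deposited FPKM and scaled signal values and the authors' group means were not used. Estimated counts were rounded. In R 4.3.3, edgeR 4.0.16 applied filterByExpr (13370 genes kept), TMM scaling and the quasi-likelihood test with group as the only term, with Benjamini-Hochberg adjustment over all genes tested and a threshold of 0.05. CPM use TMM-adjusted library sizes; SE is the log2 fold change over the square root of F. The procedure was tested on simulated data in which few genes changed, as many up as down. Scaling when most genes change, as here, was not simulated. The members, gene lists and tests were chosen with earlier results of these data known. Named among other complement genes were those with the 2 smallest p in each direction per role and a fixed set (C1ra, C1s1, C2, Cfd, Hc, Cr1l, Cd55, Cd59a, Serping1, Vsig4, C5ar2, Itgam, Itgb2). Per marker list the most abundant gene was named, except for the neutrophil (Csf3r), cardiomyocyte (Myl2) and B cell (Cd79a) lists. A complement regulator of the original list is not reported here. Prox1, Cd68, Ptprc, Csf1r and genes named by position were added. Pdpn, Col1a1, Col1a2, Lyve1, Timd4, Folr2, Gas6, Mrc1, Cd163, Tyrobp, S100a8, Egfl7, Alb, Apoa1, Calr and C1qbp were added after their values were seen. Alternatives were DESeq2 1.42.0, RLE and total-count scaling, TMM without marker genes, no and a stricter filter (1 CPM in a whole group, 100 counts), a replicate block, each library left out, MI libraries thinned to the sham depth, and limma 3.58.1 (voom, and trend on log2(TPM + 1)).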

Additional observations from a re-analysis of the deposited data

How the results depend on the processing

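All 9 genes kept their direction and their call under each of 16 alternatives (144 of 144 values), thinning of the MI libraries to the sham depth and each library left out included. C4b ran from 0.41 (total-count scaling) to 0.89, with a largest adjusted p of 0.00722 over the alternatives, and C1qa from 1.25 to 1.74. Over the alternatives 7 to 9 other complement genes rose and 13 to 15 fell. With total-count scaling 3549 genes rose and 6628 fell over the whole table. Genes that did not pass changed sign: C2 was 0.024 with DESeq2, 0.0091 with RLE scaling, 0.0238 without a filter and -0.078 to 0.038 with a library left out, and Cd59b was -0.36 to 0.60 with a library left out. Cd93 was -0.11 with total-count scaling. Relative to Csf1r in place of the macrophage list, C1qb was 0.41, C1qc 0.0599, C3 0.89 and C3ar1 0.32 higher in MI. Relative to Cd68, Cfp was at -0.86. These turns follow by construction from the unequal rises of the references (Cd68 14.5-fold, Csf1r 3.07-fold). Why the references rose unequally was not tested. The log2 C1qb to C1qa ratio differed by 0.38 to 0.47 over its 7 alternatives.

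Same-numbered sham and MI libraries did not deviate together (correlation across genes -0.07, -0.04 and 0.0001 for numbers 1 to 3), and no sham library correlated above 0.1 with any MI library, so the numbers were not treated as pairs. With the replicate number as a block, 4764 genes rose and 4871 fell, and all 9 genes were called higher. The sham depth limits genes of few counts, such as Hc and Cfd. A batch that ran with the groups and the operation itself cannot be told apart.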
